A study of Mus musculus with 3 samples.

Results

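H3K4me1 enriched regions that lie more than 100 kb from the nearest transcription start site (TSS) of a protein-coding transcript were examined in cytokine exposed mouse islets. A region was taken when its midpoint was over 100 kb from every TSS of a protein_coding transcript of GENCODE M1 on chromosomes 1 to 19 and the region held no such TSS. This gave 10618 of the 65124 regions on these chromosomes, or 16.3% (95% exact binomial interval 16.0 to 16.6), and the whole list holds 65709 regions. The choice used positions in the list and the annotation, and no enrichment value. By the sample labels, the islets came from CD1 mice aged 8 to 12 weeks, while the authors' article gives ICR mice and a narrower age range. They were cultured for 4 days with TNFα at 0.16 ng/ml, IL-1β at 0.25 ng/ml and IFNγ at 1.6 ng/ml. Chromatin was recovered with an antibody to H3K4me1 and sequenced, and DNA from 4 immunoprecipitations was pooled into 1 library, so no value below has a replicate and all intervals cover counting error only. The list holds only positions, on a 200 bp grid, and no read depth. Profiles of untreated islets and the 2 RNA-seq samples of the series were not analysed here.

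Histone H3 monomethylated at lysine 4 marks enhancers, both active and poised, as well as the flanks of active promoters. Enhancers can act on promoters far along the chromosome, and genes that control development are often flanked by long stretches without other coding genes, called gene deserts. The introns of some genes of neurons and secretory cells are also long enough to hold sequence far from any coding TSS. Intact islets contain endocrine, endothelial, duct and immune cells, and a region in the list cannot be assigned to one of them. Of 10 islet markers, Ins2 had a region over a coding TSS and 7 had one within 2 kb of a TSS, while Gcg lay 24.9 kb from the nearest region. None of 4 acinar markers had a region within 2 kb, against 2 of 2 duct markers, 1 of 4 leukocyte markers, 1 of 2 endothelial markers and 2 of 3 markers of other tissues.

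The sequence at the centre of 6 of these regions is shown because the results below turn on the places they lie in. They are 300 bp windows of the plus strand of mm9, from the farthest region (chr14:82643451-82643750, between Olfm4 and Pcdh17), from the widest far region in the deserts Chrm3 to Ryr2 (chr13:10346151-10346450) and Nmbr to Cited2 (chr10:16730351-16730650), and from the widest far region in Ptprn2 (chr12:117863551-117863850), Rora (chr9:68727251-68727550) and Glis3 (chr19:28532051-28532350). The last 3 lie in introns. Capitals mark matches to the short motifs described with the base composition. They are TAATTA (homeodomain) in the Cited2 desert, GGGNNTTTC (NF-kB) in Ptprn2 and the reverse complement of GAAANNGAA (IRF) in Glis3. The other 3 windows hold none of the 11 motifs searched.
Farthest region: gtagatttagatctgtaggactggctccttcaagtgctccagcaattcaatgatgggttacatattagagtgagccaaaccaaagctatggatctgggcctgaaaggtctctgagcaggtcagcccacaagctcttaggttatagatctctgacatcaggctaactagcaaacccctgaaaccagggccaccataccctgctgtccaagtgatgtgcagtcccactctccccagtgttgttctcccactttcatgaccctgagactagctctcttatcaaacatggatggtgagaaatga
Chrm3 to Ryr2: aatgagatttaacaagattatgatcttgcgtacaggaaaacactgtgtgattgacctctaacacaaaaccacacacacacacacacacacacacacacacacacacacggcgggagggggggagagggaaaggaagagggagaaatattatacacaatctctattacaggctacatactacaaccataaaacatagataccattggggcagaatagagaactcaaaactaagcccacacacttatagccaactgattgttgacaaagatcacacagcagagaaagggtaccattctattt
Nmbr to Cited2: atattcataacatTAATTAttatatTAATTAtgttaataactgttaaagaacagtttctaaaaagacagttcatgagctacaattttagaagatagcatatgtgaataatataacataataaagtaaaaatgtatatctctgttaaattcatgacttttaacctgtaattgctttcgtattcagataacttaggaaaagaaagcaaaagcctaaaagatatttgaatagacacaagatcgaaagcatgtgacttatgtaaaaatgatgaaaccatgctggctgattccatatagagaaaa
Ptprn2: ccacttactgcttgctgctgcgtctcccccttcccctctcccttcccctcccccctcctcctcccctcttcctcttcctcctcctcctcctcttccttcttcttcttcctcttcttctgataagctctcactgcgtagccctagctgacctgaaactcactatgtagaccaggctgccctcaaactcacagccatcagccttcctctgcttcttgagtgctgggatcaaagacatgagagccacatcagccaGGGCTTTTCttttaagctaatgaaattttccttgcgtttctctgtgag
Rora: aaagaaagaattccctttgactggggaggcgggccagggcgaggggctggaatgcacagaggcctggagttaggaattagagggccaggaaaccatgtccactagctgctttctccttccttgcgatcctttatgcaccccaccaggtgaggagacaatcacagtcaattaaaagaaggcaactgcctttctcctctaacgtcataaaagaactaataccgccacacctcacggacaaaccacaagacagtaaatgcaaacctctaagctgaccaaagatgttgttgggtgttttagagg
Glis3: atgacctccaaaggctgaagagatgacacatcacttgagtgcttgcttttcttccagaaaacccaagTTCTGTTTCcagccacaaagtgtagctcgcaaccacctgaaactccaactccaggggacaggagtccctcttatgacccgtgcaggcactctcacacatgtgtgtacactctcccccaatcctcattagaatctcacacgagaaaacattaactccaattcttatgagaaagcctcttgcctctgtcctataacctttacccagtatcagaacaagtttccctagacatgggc

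H3K4me1 regions became sparser, and their median width smaller, with distance from the nearest coding TSS. Sequence more than 100 kb from a coding TSS made up 894.8 Mb, or 37.4% of the known autosomal sequence, and held 11.9 regions per Mb. Sequence within 100 kb held 36.4 regions per Mb, so the density ratio was 0.326. Of the far regions, 5873 lay at 100 to 200 kb (18.4 per Mb), 3795 at 200 to 500 kb (10.8 per Mb), 816 at 500 to 1000 kb (5.02 per Mb) and 134 beyond 1000 kb (2.19 per Mb). The density thus fell at each step, and no step change stood at the threshold itself: 1157 regions lay at 90 to 100 kb (22.7 per Mb) and 944 at 100 to 110 kb (20.8 per Mb), both with a median width of 1200 bp. The median distance of the far regions was 184 kb (quartiles 132 and 295 kb) and the longest 2200 kb.

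**Figure D1:**
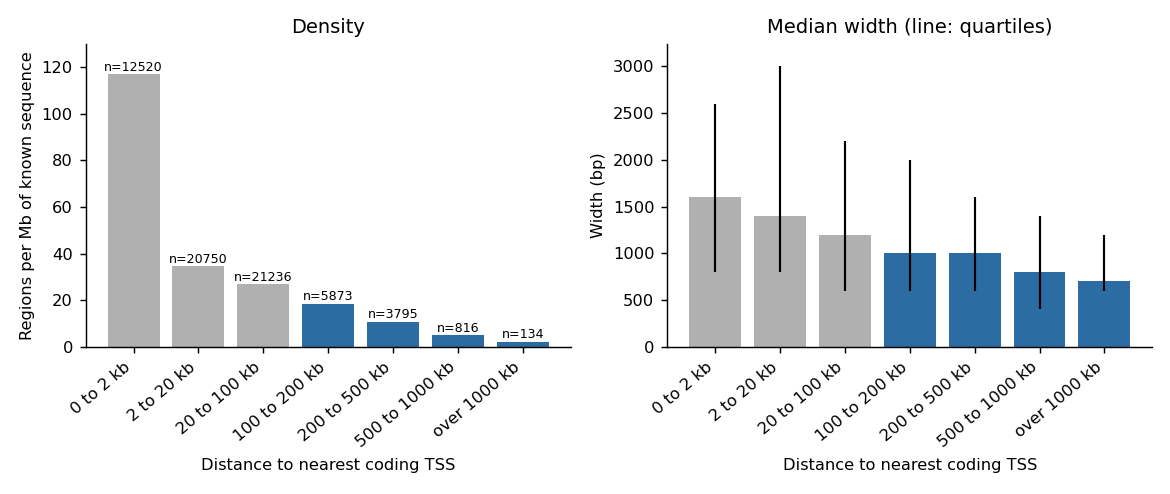
Regions per Mb of known sequence (left) and median width in bp (right) by distance of the region's midpoint to the nearest coding TSS, with the number of regions above each bar and lines for the quartiles of width. Blue bars are the regions over 100 kb away, whose density falls from 18.4 to 2.19 per Mb and whose median width falls from 1000 to 700 bp.

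Far regions had a median width of 1000 bp (quartiles 600 and 1800 bp), against 1400 bp (800 and 2600 bp) for regions within 100 kb. The narrowest calls, of a single 200 bp bin, numbered 201, or 1.89% of far regions against 3.16% of those within 100 kb. At the other end, 78 far regions (0.735%) were wider than 10 kb, against 2.28% of regions within 100 kb. Far regions covered 16.2 Mb, or 1.81% of far sequence, against 8.19% of nearer sequence. They also stood more alone: 34.1% (33.2 to 35.0) had no other region within 20 kb, against 12.8% of nearer regions. This share rose to 52.7% at 500 to 1000 kb and to 70.1% beyond 1000 kb. Far regions per Mb of far sequence ranged from 8.37 on chromosome 3 to 16.3 on chromosome 13.

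The widest far region spanned 83000 bp at chr6:31017801-31100800, between coding genes and 109.1 kb from the TSS of AB041803, where the noncoding transcripts Gm13833 and Gm13834 are annotated. The next 4 spanned 27800 to 29600 bp. One lay between coding genes near Tomm20, which encodes a subunit of the mitochondrial import receptor (chr8:129347001-129376600). Another lay in Cacna1c, a voltage-gated calcium channel subunit of β-cells, and overlapped an exon (chr6:119007201-119035800). The remaining pair lay in intron 1 of Fmnl2, a formin that acts on actin (chr2:52822601-52850800), and in intron 2 of Pcsk2, the prohormone convertase that processes proinsulin and proglucagon (chr2:143459801-143487600). These 5 lay 101.8 to 119.8 kb from a coding TSS, close to the inner limit of the class.

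Far regions were found both inside and between coding genes, at unequal density. Inside a coding gene lay 3851 far regions, 36.3% (35.4 to 37.2), although coding genes held only 19.0% of far sequence. The density was 22.7 per Mb inside coding genes and 9.34 per Mb between them. Regions inside genes lay nearer to a coding TSS (median 154 kb against 211 kb), so both places were compared at like distance. At 100 to 200 kb the density was 27.3 per Mb inside and 14.4 per Mb between genes, at 200 to 500 kb it was 17.7 and 9.3, and beyond 500 kb it was 7.29 (71 regions) and 4.11 (879 regions). The ratio was 1.77 to 1.9 in the 3 distance classes. GC content was 40.5% for far sequence inside coding genes and 39.4% between them, and its part in the difference was not tested.

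**Figure D2:**
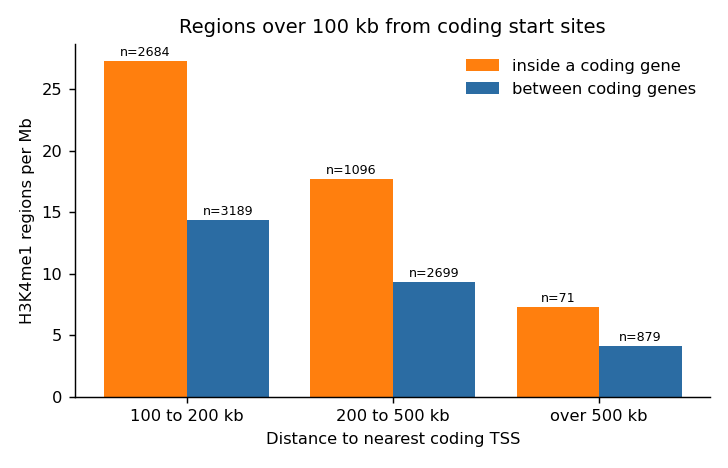
Far regions per Mb of far sequence inside coding genes (orange) and between them (blue), by distance to the nearest coding TSS, with the number of regions above each bar. The density inside genes is 1.77 to 1.9 times that between them at each distance.

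Deserts, defined here as at least 500 kb between the bodies of neighbouring coding genes, held 4359 far regions, 41.1% (40.1 to 42.0), in 65.4% of far sequence. Their density of 7.45 per Mb compares with 17.5 per Mb for the 2400 far regions between genes that are closer together, which lie nearer to a coding TSS (median 144 kb against 290 kb). At like distance the densities were 10.9 and 18 per Mb at 100 to 200 kb, and 8.75 and 15.5 per Mb at 200 to 500 kb. Of 602 deserts, 519 had at least 1 far region, 86.2% (83.2 to 88.9), and the median desert had 5. The share was 90.1% for deserts of at least 1 Mb and 90.8% for those of at least 2 Mb, while the density fell to 5.7 and 3.46 per Mb. The 60 deserts with most far regions held 1471 of them, 33.7% of those in deserts. Density also moved with base composition among the 596 deserts with at least 200 kb of far sequence: the 212 deserts of lowest GC content (35.9 to 38.2%) held 3.32 far regions per Mb, the 190 in the middle (38.3 to 40.1%) 7.69 and the 194 of highest GC content (40.2 to 49.7%) 17.1. No far region was found in 35, 31 and 13 of them. The groups had 303.6, 155.5 and 125.8 Mb of far sequence, so deserts of lowest GC content were also larger. They were not compared at like size or distance. Recovery of fragments in sequencing also varies with GC content, and its part in this order was not tested.

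The desert with most far regions, 43, lay between Chrm3, the M3 muscarinic acetylcholine receptor through which acetylcholine raises insulin secretion, and Ryr2, a calcium release channel (chr13:9878330-11645369, 1767 kb, of which 1635 kb is known sequence). In it 42 of the 43 regions lay on the Chrm3 side of the desert's midpoint, and the median distance of the 43 from a coding TSS was 395 kb. This rests on the GENCODE M1 model of Chrm3, a single exon of 1.949 kb. The RefSeq gene on GRCm38, another build, is over 100 kb longer, so some of the 42 can lie within Chrm3 and nearer to a start of it than given here, and how many was not tested. The median gap between neighbours was 6.3 kb, whereas 675.8 kb without a far region preceded the single region on the side of Ryr2. The window shown above is the centre of the widest of them, which spanned 5400 bp (chr13:10343601-10349000). Between Nmbr, the neuromedin B receptor, and Cited2, a coregulator that binds CBP and p300, 42 far regions lay in 2953 kb (chr10:14490390-17443033), of which 36 were on the Cited2 side of the midpoint. Here the regions were more scattered, with a median gap of 26.6 kb and distances of up to 1410 kb.

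The other deserts among the 10 with most far regions were occupied on both sides. Dhx35 to Gm826 held 41 (22 nearest Dhx35, an RNA helicase), Zfp608 to Gramd3 held 39 and Matn1 to Ptpru held 37. Celf4 to Pik3c3, 4520 kb long, and Fam86 to Rbfox1, a splicing regulator, held 35 each. The RefSeq model of Rbfox1 is over 100 kb longer than that of GENCODE M1. Part of this interval can thus lie within Rbfox1, and how much was not tested. Prok2 to Rybp held 34, and Camk1g to Plxna2, a semaphorin receptor, and Kazn to Prdm2 held 32 each. Another pair, Klf4 to Actl7b and Rps24 to Zmiz1, tied with them at 32 and is not among the 10 shown. Their densities ran from 8.1 per Mb in Celf4 to Pik3c3 to 94.2 per Mb in Prok2 to Rybp. The latter is a short desert of 502.2 kb beside Rybp, a Polycomb group protein, and 22.4% of its far sequence was covered by regions, with a largest gap of 26.4 kb. Across the 165 deserts with at least 10 far regions, the busier side of the midpoint held a median of 64.3% of them, and 29 deserts (17.6%) had at least 80% on one side, so most of these deserts were less one-sided than the interval beside Chrm3 as annotated.

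**Figure D3:**
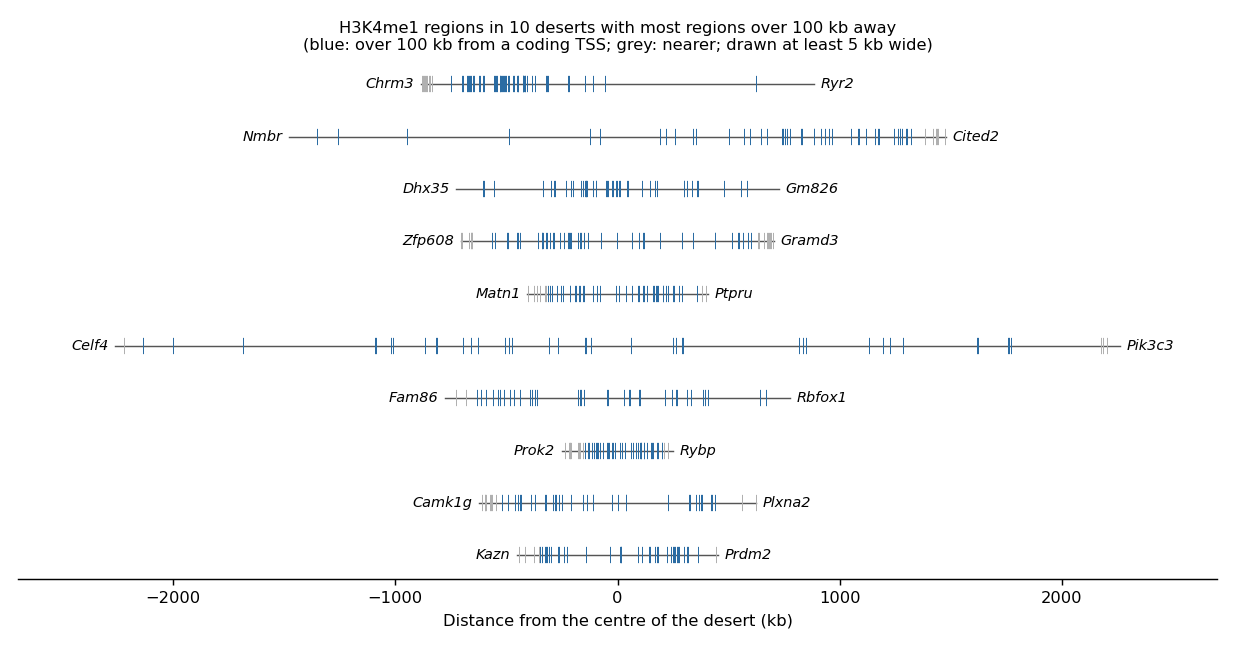
Position of H3K4me1 regions in 10 deserts with most far regions (Klf4 to Actl7b and Rps24 to Zmiz1, which tie with the last at 32, are not drawn), as distance in kb from the desert's centre, with the flanking coding genes at each end. Blue bars are regions over 100 kb from a coding TSS and grey bars are nearer ones. The side of Chrm3, as annotated in GENCODE M1, holds 42 of 43 far regions and the side of Cited2 holds 36 of 42. Chrm3 and Rbfox1 have RefSeq models over 100 kb longer than those drawn.

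By density, Prok2 to Rybp was followed by Enc1 to Gm10260 (23 far regions, 72.0 per Mb), Gadd45g to Diras2 (28, 57.8 per Mb), Matn1 to Ptpru (54.6 per Mb) and Jun to Fggy (15, 49.1 per Mb). Gadd45g encodes a stress response protein and Jun a subunit of the AP-1 transcription factor. The longest deserts differed in density, against 7.45 per Mb for deserts as a whole. Celf4 to Pik3c3, the longest of known sequence, stood above it at 8.1 per Mb. Olfm4 to Pcdh17, flanked by a protocadherin gene, held 11 far regions in 4421 kb (2.59 per Mb), Cntnap5b to Cdh20 held 6 in 4283 kb (1.43 per Mb) and 4930555F03Rik to Aga held 18 in 4010 kb (4.68 per Mb). The longest interval, Gm5591 to Gm16387 at 7199 kb, contains only 198.8 kb of known sequence and had none. Among intervals of fully known sequence the longest without a far region were Gm17624 to Vstm2a (3609 kb) and Cox7c to Gm8526 (2432 kb).

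The region farthest from any coding TSS, 2200 kb away, was 400 bp wide and lay between Olfm4 and Pcdh17 (chr14:82643401-82643800), 973 kb from the next region. The following 3 lay in the desert Celf4 to Pik3c3 at 2196, 2144 and 2119 kb. The nearest of these 3, at 2119 kb, was 6000 bp wide and 21.4 kb from its neighbour. The fifth farthest lay between Cntnap5b and Cdh20 at 2033 kb and was 1200 bp wide.

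Far regions inside genes lay in introns of about the lengths that far sequence inside genes offers. Of the 3851, 3558 (92.4%) overlapped no exon of a coding transcript and 293 did. The midpoint of 3802 (98.7%) lay in an intron, as did 98.6% of points taken every 5 kb along far sequence inside coding genes. Where transcripts overlapped, the shortest intron holding the midpoint or point was taken. Its median length was 86.17 kb for far regions and 94.44 kb for the points. Introns longer than 100 kb held 1721 (45.3%) of these regions and 47.7% of the points. Those over 200 kb held 20.6% and 24.4%, and those over 500 kb 6.13% and 5.67%. Intron 1 of the transcript held 577, intron 2 held 760 and intron 3 held 467. The share of far sequence in each was not computed, so these counts show no preference. Of 1032 coding genes that contain far sequence, 710 (68.8%) held at least 1 far region.

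Ptprn2 held most, 54 far regions in 692.4 kb of far sequence (78.0 per Mb, chr12:117724193-118516640). It encodes phogrin, a membrane protein of the dense-core granules of islet cells and an autoantigen in type 1 diabetes. The 54 were 200 to 12600 bp wide with a median gap of 5.4 kb, covered 156.6 kb and were spread over 13 introns, and 7 of them overlapped an exon. Rora, a nuclear receptor of the circadian clock, held 44 at 101 per Mb, all in its first intron of 542.1 kb (chr9:68501780-69043881). Robo2, a Slit receptor that organises islet architecture, held 35 at 83.6 per Mb, of which 30 were in its second intron of 305.6 kb. Auts2, a regulator of neuronal genes, held 38 at 52.4 per Mb and Ctnnd2, a catenin, held 36 at 47.6 per Mb, both spread over several introns.

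Nell1, a secreted protein, held 33 far regions (43.0 per Mb), Exoc4, an exocyst subunit that tethers secretory vesicles, 32 (55.1 per Mb), Odz2, a teneurin, 29 (33.9 per Mb) and Fam155a 28 (60.4 per Mb, all in its first intron of 537.0 kb). Fam155a encodes a subunit of the sodium leak channel. In Exoc4 the widest region reached 16800 bp. Gm20388 also counts 29, but its annotated transcript spans 4435 kb with an intron of 4384 kb over many other genes, and none of the 29 was nearest to its own TSS. Far regions were a median of 2000 bp wide in Ptprn2 and 2400 bp in Fam155a, and 700 bp in Ctnnd2.

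**Figure D4:**
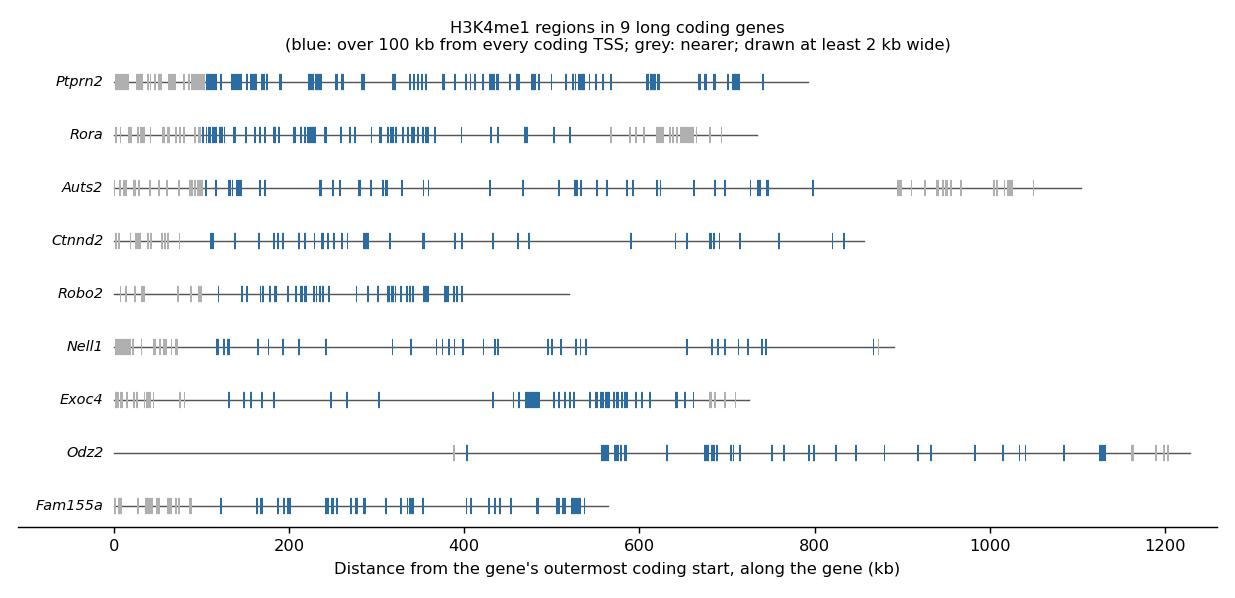
Position of H3K4me1 regions along 9 coding genes with many far regions, as distance in kb from the outermost coding start in the direction of transcription. Blue bars are regions over 100 kb from every coding TSS, of which Ptprn2 holds 54 and Rora 44, and grey bars are nearer regions.

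Far regions were also grouped in runs. Joined over gaps of up to 20 kb they formed 5826 runs, of which 3820 were single regions (36.0% of all far regions), and 346 runs of at least 5 held 2700 (25.4%). The largest run, 37 regions in 265.8 kb, lay in Rora (chr9:68602601-68868400) and covered 78.2 kb. It was followed by runs of 28 in Ptprn2, 26 in Msi2, an RNA-binding protein, 24 that lay partly in Zfand3 (13) and partly in its neighbour Btbd9 (11), and 23 between coding genes near Serp2.

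Each far region was then assigned to the coding gene with the nearest TSS, which gives the flank and not a target. Of 3594 coding genes that are nearest to some far sequence, 2339 (65.1%) had at least 1 far region, with a median of 1 and 11.9 per Mb. Rora was nearest to most, 47, followed by Robo2 (45), Auts2 (43), Chrm3 (42), Zfp608 (41), Cited2 and Ptprn2 (36 each), Celf4 (35), Rbfox1 (32) and Xylt1 (31), an enzyme of proteoglycan synthesis. Of 17473 coding genes matched to RefSeq by symbol, 84 have a RefSeq model over 100 kb longer than that of GENCODE M1, and these are nearest to 443 far regions (4.17%). Chrm3, Robo2 and Rbfox1 are among them, as are Cdkal1, Kcnma1 and Zfhx3 named below. Distances beside these genes, and whether a region there lies between genes, depend on the annotation. The share of genes with a far region depends on how much far sequence a gene has, so the density is given with it for each list.

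Islet transcription factor genes had more far regions per Mb of their far sequence than coding genes as a whole. Of the 40 listed genes, 26 (65.0%) had far sequence, against 16.9% of all coding genes. All 26 had at least 1 far region, against 65.1% of all coding genes with far sequence. Their median was 6.5 regions and their density 26.2 per Mb, against 11.9. A listed gene had a median of 296 kb of far sequence, against 109 kb for all coding genes. This list and those below were chosen with earlier results of these data known, so the values describe the lists and test nothing. Glis3, a zinc finger factor needed for β-cell development and insulin transcription, had 23 in 210.9 kb (109 per Mb), of which 18 were in its own introns or exons, and the widest spanned 18400 bp (chr19:28523001-28541400). Zbtb20, a repressor that regulates β-cell glucose metabolism, had 23 in 311.7 kb (73.8 per Mb), 13 of them inside the gene. Sox4, which acts in endocrine differentiation, had 20 in 464.8 kb (43.0 per Mb), all between genes of GENCODE M1 at 140 to 321 kb. Of these, 10 lay in a desert. The widest lay on the side of Cdkal1, whose RefSeq model is over 100 kb longer, and whether any lies within Cdkal1 was not tested. After seeing the values, Foxa2, a pioneer factor of endoderm, is added with 14 (44.5 per Mb) and Nkx6-1, a factor of β-cell identity, with 5 (16.2 per Mb).

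Of the genes of cytokine response and inflammation, 20 of 56 (35.7%) had far sequence, with a median of 133 kb, against 16.9% of all coding genes and 109 kb. Of the 20, 16 (80.0%) had a far region, at 21.6 per Mb, against 65.1% and 11.9 per Mb for all coding genes with far sequence. Myc, a transcription factor of growth, had 28 at 111 to 582 kb, all between genes, and the widest spanned 6800 bp (chr15:62159001-62165800). Bcl2l11, which encodes the proapoptotic protein Bim, had 13 in 141.1 kb (92.2 per Mb) and Jun 10 in 152.6 kb (65.5 per Mb). Named after their values were seen, Prdm1 had 7, Nfkbiz 6 and Tnfaip3, an inhibitor of NF-kB signalling, 5. Ifngr1, Il6, Irf8 and Il7 had none, the last in 347.9 kb of far sequence. With no untreated profile analysed here, which of these regions were present before cytokine exposure is unknown.

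Of the β-cell function and exocytosis list, 22 of 49 genes (44.9%) had far sequence, against 16.9% of all coding genes. Of the 22, 14 (63.6%) had a far region, close to the 65.1% of all coding genes with far sequence, at 31.1 per Mb. Robo2 had 45 (35.9 per Mb) and Ptprn2 36 (86.7 per Mb). Adra2a, the adrenergic receptor that inhibits insulin secretion, had 20 (46.8 per Mb), all between genes at 125 to 502 kb, and Cdkal1, a tRNA-modifying enzyme, tied with it at 20 (67.0 per Mb). Without Ptprn2 the density of the list was 26.7 per Mb and without Robo2 it was 29.7. The median gene of the list had 1.5 regions and 11.3 per Mb, against 1 and 8.37 per Mb for all coding genes with far sequence. Robo2 is also in the list of adhesion and axon guidance genes, which had most far sequence (a median of 890 kb) and the lowest density of the 7 lists, 5.92 per Mb. There 60 of 68 genes (88.2%) had a far region, led after Robo2 by Ctnnd2 and Magi1, a scaffold of cell junctions, with 27 each.

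The other 3 lists are set beside the same 65.1% and 11.9 per Mb, and their genes had more far sequence, at medians of 165 to 300 kb against 109 kb. Ion channel and neurotransmitter receptor genes had far regions at 37 of 47 (78.7%) but at 8.3 per Mb, below all coding genes, led by Chrm3 (42), the potassium channel gene Kcnma1 (12) and the glutamate receptor gene Grid1 and the cation channel gene Trpm3 (8 each). Developmental transcription factors of other tissues had them at 34 of 40 (85.0%) and 14.7 per Mb, with 17 at Dach1, 16 at Zfhx3 and 15 each at Sox2 and Tox. Signalling ligands and their antagonists had them at 26 of 37 (70.3%) and 9.27 per Mb, with the same median of 1 region a gene as all coding genes, and with 10 each at Bmp2 and Inhba and 9 at Fgf9. The far regions at Inhba, a subunit of activins, had a median distance of 663 kb.

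Far regions were compared with annotated noncoding start sites. A noncoding TSS here is the annotated start of any transcript of a gene without a protein_coding transcript, pseudogenes and small RNAs included. Within 20 kb of such a start lay 386 far regions for small RNAs, 382 for processed transcripts and 294 for pseudogenes. For miRNAs there were 163 and for lincRNAs 99, and a region can count for several types. Of the 10618, 93 (0.876%) held a noncoding TSS, 175 (1.65%) lay within 2 kb of one and 1225 (11.5%, 10.9 to 12.2) within 20 kb, while 6267 (59.0%) were over 100 kb from every annotated noncoding TSS as well. Sequence within 20 kb of a noncoding TSS made up 9.99% of far sequence, and the density was 13.7 per Mb there and 11.7 per Mb farther away. Of all autosomal regions, 22.3% lay within 20 kb of a noncoding TSS. A lincRNA TSS was held by 18, the widest of which was 10200 bp wide and lay at Gm15651. A miRNA start was held by 11. They include regions over Mir29a and Mir29b-1, whose miRNAs are abundant in islets (chr6:31011401-31013400, 2000 bp), over Mir137 and over Mir9-2, both known from neurons, the latter 214 kb from Mef2c.

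The windows at the centre of far regions were richer in GC than the far sequence around them and poorer than nearer H3K4me1 regions. The median GC content of the central 300 bp was 43.7% (quartiles 39.7 and 48.0) in far regions, 39.3% in 43531 windows of far sequence outside regions, 45.7% in regions 20 to 100 kb from a coding TSS and 50.3% in those within 2 kb. It was 40.3% in the 950 far regions beyond 500 kb. Windows with over 50% GC and an observed to expected CpG ratio over 0.6, as in CpG islands, made up 0.942% of far regions (100), 1.68% of regions at 20 to 100 kb, 2.72% at 2 to 20 kb and 24.3% within 2 kb of a coding TSS.

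Short motifs were searched on both strands of the same windows. TGANTCA, the AP-1 motif bound by Jun and Fos proteins, was present in 14.1% of far regions (13.4 to 14.7), 11.4% of all autosomal regions and 9.21% of far sequence outside regions (8.94 to 9.48). TGTTTAC, bound by forkhead factors such as Foxa2, was present in 8.08% (7.57 to 8.62), 6.16% and 4.63% (4.43 to 4.83). The RFX motif GTTGCCA was found in 4.4%, 3.96% and 2.45%, and the MAF motif TGCTGAC in 6.13%, 5.34% and 3.71%. The E-box CAGATG of NEUROD factors was found in 26.2%, 23.8% and 21.4%. Regions 20 to 100 kb from a coding TSS were closer to far regions than all autosomal regions were. Their shares were 12.5% for AP-1, 7.1% for the forkhead motif, 4.16% for RFX, 5.74% for MAF and 25.9% for the E-box. Since GC content differs, far regions and far sequence were compared within 4 bands of GC content. The ratio of shares was 1.5 to 2.04 for AP-1, 1.43 to 2.15 for the forkhead motif, 1.51 to 1.84 for RFX and 1.01 to 1.36 for the E-box, so these ratios were above 1 in every band, although the E-box was at 28.1% against 27.8% in one of them, whereas the ratio for MAF was 0.959 to 2.1.

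The motifs of STAT, IRF and NF-kB factors did not have a ratio above 1 in every band. TTCNNNGAA, the GAS motif of STAT factors, was present in 10.5% of far regions, 9.51% of all autosomal regions and 12.4% of far sequence outside regions, with ratios of 0.897 to 1.11 in the bands. GAAANNGAA of IRF factors was present in 11.9%, 10.5% and 13.0% (0.916 to 1.25). GGGNNTTTC of NF-kB was present in 4.49% (4.11 to 4.9), 4.21% and 3.54% (3.37 to 3.72). From the lowest to the highest GC band the ratios were 0.916, 1.25, 1.24 and 1.01 for IRF. For NF-kB they were 1.14, 1.22, 0.917 and 1.14. Over all windows the ratio was 1.27 for NF-kB, above the 1.22 of the E-box, against 0.847 for STAT and 0.915 for IRF. The homeodomain motif TAATTA was present in 13.2%, 9.7% and 12.2%, with 1.31 to 1.77 in the bands, and GTTAATNAT of HNF1 in 1.77%, 1.33% and 1.38% (1.23 to 2.01). AGATAAG of GATA factors, in 4.04%, 3.69% and 4.68%, had ratios of 0.778 to 1.21. A match to so few letters is not a bound site, GTTAATNAT can overlap TAATTA, and no match says nothing of the factor.

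**Figure D5:**
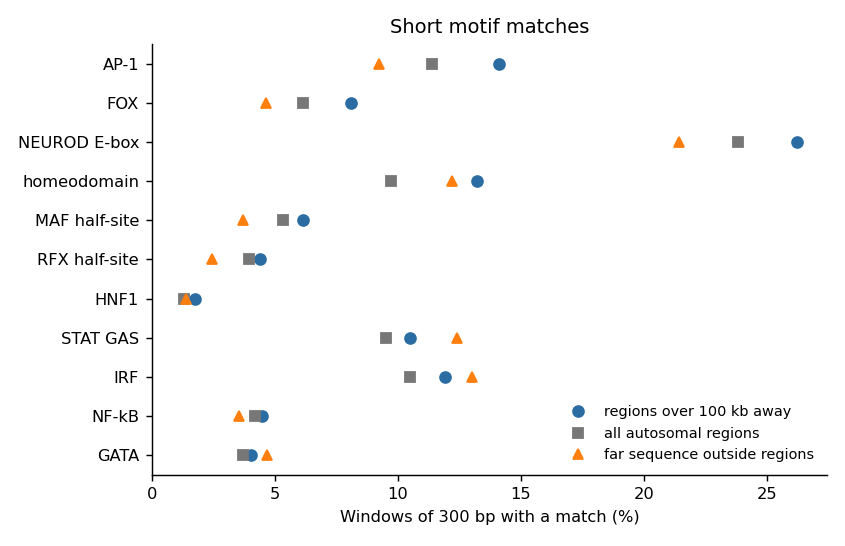
Share of 300 bp windows with a match to each of 11 motifs on either strand, in far regions (blue circles), all autosomal regions (grey squares) and far sequence outside regions (orange triangles). AP-1 is at 14.1%, 11.4% and 9.21%, and the STAT motif is at 10.5%, 9.51% and 12.4%.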

How the data were processed

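Per the submitters' processing notes, reads were mapped to mm9 with Bowtie2 2.2.1. The authors called enriched regions with ChromHMM (a segmentation of the genome into chromatin states) and deposited the chromosome, start and end of each region, with no count or score. Whether the list precedes their filter on weak loci is not given in the sources used here. 1 was added to each start. TSS, exons and gene bodies came from GENCODE M1 and sequence from NCBIM37 (mm9), without N bases. RefSeq gene lengths (GRCm38) served only to find genes with a longer model. The nearest coding gene was the one with the closest coding TSS. Shares have 95% exact binomial intervals. Motifs and GC content were taken from the central 300 bp, and far sequence was sampled every 20 kb outside regions. The text names the deserts and genes with most far regions, the densest, longest and longest empty deserts, the 3 leading genes of each list, and the 5 widest and farthest regions. The members and lists were chosen with earlier results of these data known. Width, distance, annotation and desert size were varied (closing section). Interval steps were tested on simulated data. The tools were matplotlib 3.10.9, scipy 1.17.1, pandas 2.3.3 and numpy 2.4.6 under Python 3.11.15.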

Additional observations from a re-analysis of the deposited data

How the results depend on the processing

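Of 74 alternative values of 8 results, 28 stayed within the counting interval or, for the number of far regions, within 1.5 times. With regions of at least 1000 bp, there were 5879 far regions, 13.9% of autosomal regions, with a density ratio of 0.27, 39.1% inside coding genes, 37.3% in deserts, 12.2% near a noncoding TSS (within 20 kb) and 41.5% isolated (no other region within 20 kb), and 75.1% of deserts had one. Regions of at least 400 bp gave 35.2% isolated. Merging over gaps of up to 1000 bp gave 16.6%, a ratio of 0.334 and 35.5% isolated. A threshold of 50 kb gave 19121 far regions, 29.4%, a ratio of 0.388, 44.4% inside genes, 26.1% in deserts, 13.6% near a noncoding TSS and 27.9% isolated. One of 200 kb gave 4745, 7.29%, 0.248, 24.6%, 67.1%, 10.1% and 42.5% in the same order, and 81.9% of deserts. Distance from every annotated transcript's TSS gave 5800, 8.91%, 33.0% inside genes, 45.8% in deserts, 0% near a noncoding TSS by construction, 37.4% isolated and 74.4% of deserts. Every transcript of coding genes gave 14.7%, 0.31, 31.3% inside genes, 45.2% in deserts and 35.7% isolated. Counting N bases gave a ratio of 0.303. Deserts of at least 1 Mb held 21.1%, and 90.1% of them had a far region. Isolation was 50.5% at 10 kb and 16.2% at 50 kb, and a noncoding TSS lay within 2 kb of 1.65% and within 100 kb of 41.0%. Leaving out 5 coding transcripts with an intron over 1 Mb, an alternative chosen after seeing the data, gave 10619 far regions, 35.9% inside genes and 41.1% in deserts. The density ratio, computed for the choices of width, merging, distance, annotation and N bases, stayed under 1. A stricter calling threshold was not run because the list has no score. No paired analysis was possible because the list comes from 1 library, and no replicate could be left out. Depth is unknown, so absence from the list sets no limit on the mark.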
